A study of Mus musculus with 41 samples.

Results

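The urea cycle genes Cps1, Otc, Ass1, Asl, Arg1, Nags, Slc25a15 and Slc25a13 were followed by RNA-seq in mouse liver from healthy tissue to tumour. The 8 genes were chosen by name, for their role in the cycle, among the 24511 genes of the expression table. All 8 were among the 12337 genes that passed the filter on low values. The urea cycle turns ammonia, which is released when amino acids are broken down, into urea, and the liver is the main organ that runs the whole cycle. Its opening steps take place in the mitochondria of hepatocytes and its later steps in the cytosol, so that carriers must move intermediates across the mitochondrial membrane. In healthy liver the cycle is most active in hepatocytes around the portal vein, while glutamine synthetase takes up remaining ammonia in hepatocytes around the central vein.

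All samples came from male C57BL/6 mice. Tumours on a high-fat diet (HFD), called HCC, came from the genotypes MupHe (n = 4), IgAkMup (n = 4) and CD8kMup (n = 3). Livers with steatohepatitis on HFD, called NASH, came from MupHe and IgAkMup (n = 3 each). Fatty livers on HFD that the labels call healthy, named HFD control, came from B6 and IgAkCLM (n = 3 each). Healthy livers of the groups marked NC came from MupHe, IgAkMup, CD8kMup and B6 (n = 3 each), and the labels give neither the meaning of NC nor a diet for these mice. The labels do not spell out the alleles behind the genotype names, and they give no ages. They do not say that the samples of a group are separate animals, so the spread behind each p-value may be technical. For each gene that spread was estimated once over all 11 groups, tumours included, and not from the compared libraries alone.

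Levels are given as deposited, as regularized log2 (rlog) values, so a difference of 1 is a doubling. Values of different genes are not comparable as levels, because they are not divided by transcript length. How many reads lie behind a value is unknown. Every HCC library carries the tag SS H in its column name, every NC library Tri NC, the IgAkMup NASH and B6 HFD control libraries SS N, and the MupHe NASH and IgAkCLM HFD control libraries Tri N. The labels do not explain these tags. On the second principal component of all kept genes, 3 tumours stood away from the rest: MupHe HCC 3, IgAkMup HCC 5 and IgAkMup HCC 9. The mean level of 8 hepatocyte marker genes, such as Alb and Ttr, was between 15.96 and 16.21 in NC livers, between 15.91 and 16.16 in HFD controls, between 15.78 and 16.05 in NASH livers and between 15.44 and 16.71 in tumours. No hepatocyte marker was at 0 in every library of a group. In whole tissue, fewer hepatocytes and less RNA per hepatocyte cannot be told apart.

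The 8 genes lie on 8 chromosomes, so none is a neighbour of another. In the RefSeq annotation of GRCm38.p6, the assembly that mm10 stands for, Cps1 lies at chr1:67122426-67231267, Ass1 at chr2:31470270-31520670 and Nags at chr11:102145513-102149528, all on the plus strand. Otc lies on the plus strand at chrX:10252230-10321024. Asl lies at chr5:130011258-130024381, Slc25a13 at chr6:6041218-6217304, Slc25a15 at chr8:22375550-22398621 and Arg1 at chr10:24915207-24927470, all on the minus strand. RefSeq promoter windows were at hand for Ass1, Slc25a13, Slc25a15, Nags and Otc. Windows for Cps1, Asl and Arg1 were not used here.

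Ass1 needs a warning about its counts. A processed pseudogene, Gm5424, lies on the plus strand at chr10:62071123-62072362 and matches all 1236 coding bases of Ass1 with 6 mismatches, an identity of 99.52%. Of 1187 windows of 50 bases along the Ass1 coding sequence, 907 (76.4%) are identical in Gm5424, and the longest identical run is 398 bases. The stretch from coding position 574 to 663 is shown because it holds 1 of these mismatches, printed as a capital in both genes.
Ass1: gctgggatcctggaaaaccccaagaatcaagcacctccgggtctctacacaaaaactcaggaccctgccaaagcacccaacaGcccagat
Gm5424: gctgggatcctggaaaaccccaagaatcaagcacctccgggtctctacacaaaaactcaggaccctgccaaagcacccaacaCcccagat
The deposited Gm5424 level was 0.0179 to 0.0728 below that of Ass1 in all 35 libraries, with a median gap of 0.038. How reads that match both were counted is not given in the sources used here, so the level of Ass1 is uncertain and its differences are those of both genes. For the other 7 genes, no annotated transcript outside the gene matched at least 30% of the coding sequence at 90% identity or more.

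The promoters of Ass1 and Otc are shown because these genes had the 2 largest mean differences between tumours and NASH livers (given further on) and differ in CpG content. Both stretches run 5′ to 3′ up to the first annotated exon, with each CpG in capitals. The Ass1 stretch is chr2:31470020-31470206 and the Otc stretch is chrX:10252055-10252229, both on the plus strand (RefSeq, GRCm38.p6).
Ass1: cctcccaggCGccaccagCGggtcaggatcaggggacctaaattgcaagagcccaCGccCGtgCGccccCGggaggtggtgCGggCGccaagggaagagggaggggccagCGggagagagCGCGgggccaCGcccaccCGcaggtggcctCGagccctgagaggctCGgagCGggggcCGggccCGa
Otc: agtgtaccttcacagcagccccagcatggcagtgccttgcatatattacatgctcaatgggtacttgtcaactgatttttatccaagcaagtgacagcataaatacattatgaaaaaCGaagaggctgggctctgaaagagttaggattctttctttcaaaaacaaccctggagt
In its promoter window of 250 bases, Ass1 held 23 CpG and Otc held 1, against a median of 6 over 32841 such windows. Nags, Slc25a13 and Slc25a15 held 11 each. The longest run outside the gene and annotated exons was 187 bases for Ass1, 175 for Otc, 119 for Slc25a13 and 99 for Slc25a15. For Nags it was all 250. The windows of the other genes thus also take in bases of the gene or of exons. These windows were searched on both strands for CAAAGNNCA (HNF4), TTGCNNAA (C/EBP factors), TGACGTCA (cAMP response element) and the palindromic glucocorticoid receptor motif. The HNF4 letters occur in 5.49% of all windows, the C/EBP letters in 9.57%, the cAMP letters in 1.55% and the glucocorticoid receptor motif in 0.387%. None was found in the windows of Ass1, Otc, Nags, Slc25a13 and Slc25a15, which says only that these letters are not there.

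**Figure D1:**
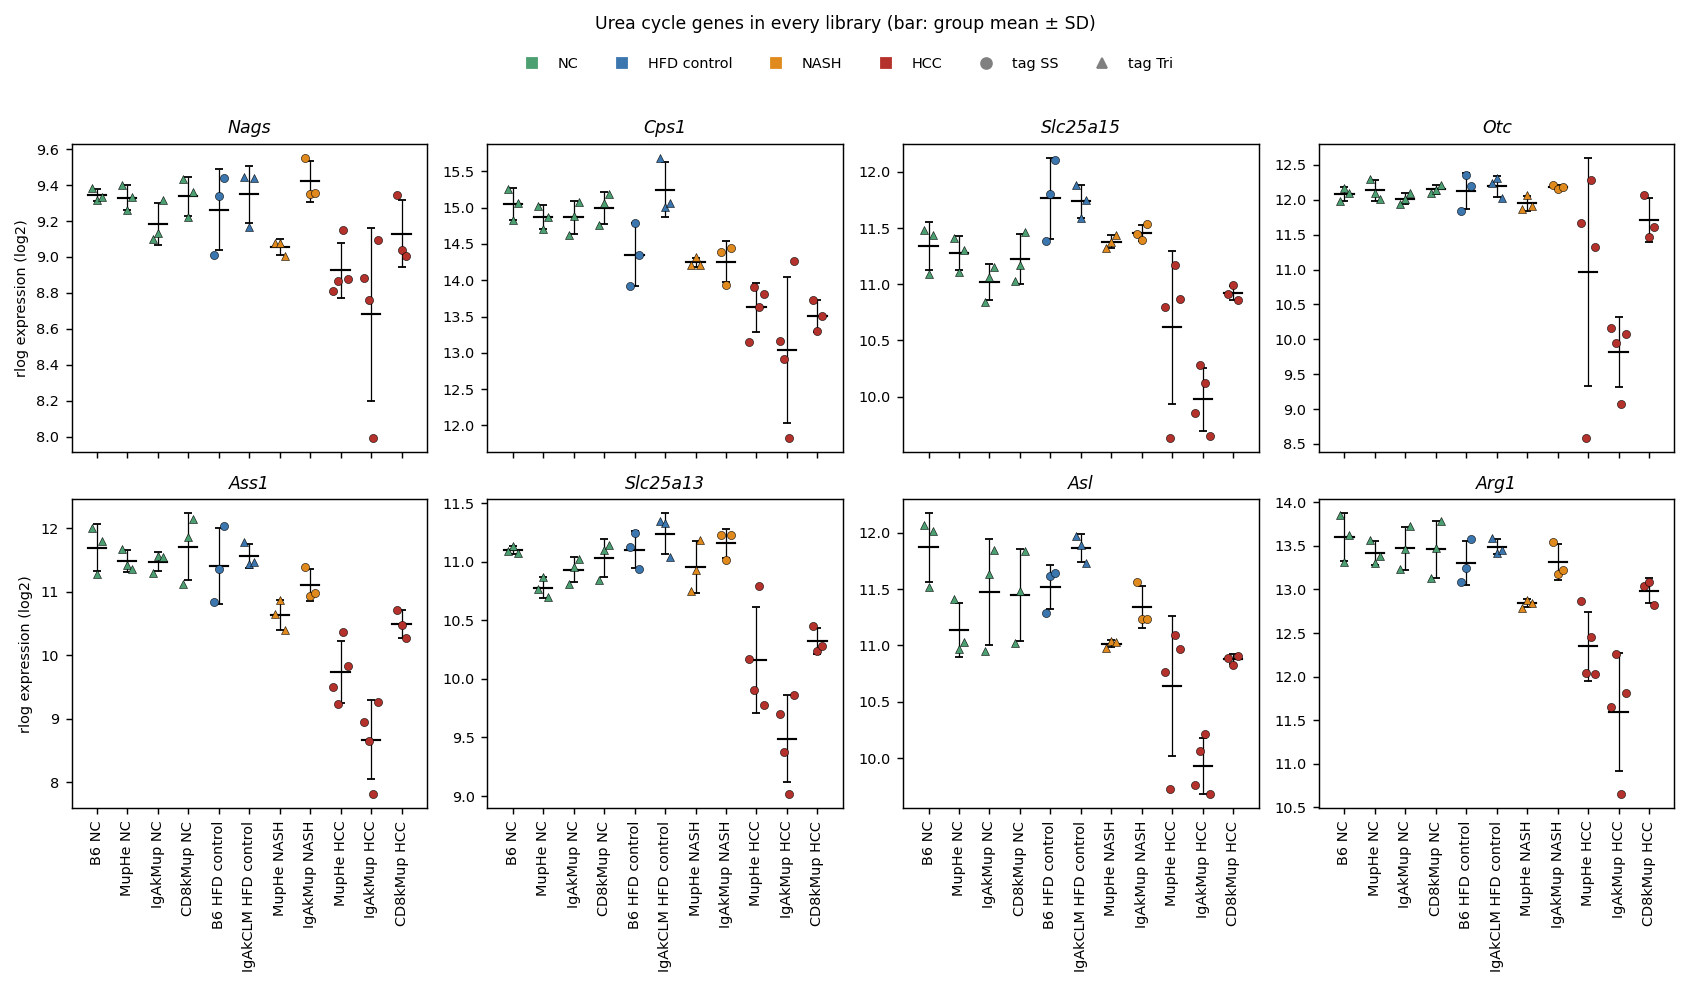
Level of each urea cycle gene in every library (rlog, log2; each panel has its own scale), by group from NC through HFD control and NASH to HCC. Bars are group means ± SD and the marker shape gives the first part of the column tag. Tumours reach below the non-tumour libraries for all 8 genes, and the 4 IgAkMup tumours hold the lowest group mean in each panel.

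Cps1 makes carbamoyl phosphate from ammonia in the mitochondrial matrix, the first committed step of the cycle. Its lowest, median and highest levels were 14.63, 14.96 and 15.26 in the 12 NC livers, 13.91, 14.90 and 15.69 in the 6 HFD controls, and 13.93, 14.27 and 14.44 in the 6 NASH livers. In tumours Cps1 was at 13.15, 13.90, 13.63 and 13.82 in MupHe HCC 2, 3, 4 and 7, at 13.16, 12.92, 11.82 and 14.26 in IgAkMup HCC 5, 7, 8 and 9, and at 13.73, 13.30 and 13.50 in CD8kMup HCC 3, 4 and 8. Of the 11 tumours, 10 were below every non-tumour library, and the exception, IgAkMup HCC 9, lay within the NASH range. For such counts, here and below, the share of all genes with as many tumours that low is not given. The IgAkMup tumours had the widest Cps1 range of any group. Nags makes N-acetylglutamate, without which CPS1 is inactive. Its group means spanned little, with 8.93 ± 0.15 in MupHe HCC, 8.68 ± 0.48 in IgAkMup HCC (SD, n = 4 each) and 9.13 ± 0.19 in CD8kMup HCC (SD, n = 3), against 9.06 ± 0.04 in MupHe NASH and 9.42 ± 0.11 in IgAkMup NASH (SD, n = 3 each). The Nags level of 7.99 in IgAkMup HCC 8 was the lowest of all libraries, and 7 of 11 tumours were below every non-tumour library.

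Otc joins carbamoyl phosphate to ornithine to give citrulline, inside the mitochondrion. It was nearly constant outside tumours, between 11.84 and 12.35 in the 24 non-tumour libraries. In tumours Otc was at 11.67, 8.58, 12.29 and 11.32 in MupHe HCC 2, 3, 4 and 7, at 10.16, 9.95, 9.07 and 10.07 in IgAkMup HCC 5, 7, 8 and 9, and at 12.07, 11.46 and 11.60 in CD8kMup HCC 3, 4 and 8. MupHe HCC 3 thus had the lowest Otc of all 35 libraries, and MupHe HCC 4 and CD8kMup HCC 3 lay within the non-tumour range. Slc25a15 exchanges ornithine and citrulline across the inner mitochondrial membrane. Its levels were 10.80, 9.63, 11.17 and 10.87 in MupHe HCC 2, 3, 4 and 7, 9.85, 10.28, 10.12 and 9.65 in IgAkMup HCC 5, 7, 8 and 9, and 10.91, 10.99 and 10.86 in CD8kMup HCC 3, 4 and 8. The lowest, median and highest Slc25a15 levels were 10.85, 11.16 and 11.48 in NC livers, 11.38, 11.78 and 12.10 in HFD controls, and 11.33, 11.41 and 11.53 in NASH livers, so that tumours overlapped NC livers but neither of the other stages.

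Ass1 joins citrulline to aspartate in the cytosol to give argininosuccinate. Its lowest, median and highest levels were 11.12, 11.55 and 12.14 in NC livers, 10.84, 11.44 and 12.03 in HFD controls, and 10.39, 10.90 and 11.39 in NASH livers. In tumours Ass1 was at 9.50, 9.23, 10.36 and 9.83 in MupHe HCC 2, 3, 4 and 7, at 8.95, 8.64, 7.81 and 9.26 in IgAkMup HCC 5, 7, 8 and 9, and at 10.71, 10.48 and 10.27 in CD8kMup HCC 3, 4 and 8. All 8 MupHe and IgAkMup tumours were below every non-tumour library, as was CD8kMup HCC 8, while CD8kMup HCC 3 and 4 overlapped the NASH livers. Slc25a13, also called citrin, carries aspartate out of the mitochondrion in exchange for glutamate. Slc25a13 was between 10.70 and 11.35 in the 24 non-tumour libraries. It was at 10.17, 9.90, 10.79 and 9.78 in MupHe HCC 2, 3, 4 and 7, at 9.70, 9.38, 9.02 and 9.86 in IgAkMup HCC 5, 7, 8 and 9, and at 10.45, 10.24 and 10.28 in CD8kMup HCC 3, 4 and 8. MupHe HCC 4 was the only tumour of the 11 that reached the non-tumour range of Slc25a13.

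Asl splits argininosuccinate into arginine and fumarate. Its group means were 10.64 ± 0.62 in MupHe HCC, 9.93 ± 0.25 in IgAkMup HCC (SD, n = 4 each) and 10.88 ± 0.04 in CD8kMup HCC (SD, n = 3), and 24 non-tumour libraries lay between 10.95 and 12.07. Asl varied even between NC livers, at 11.14 ± 0.24 in MupHe NC against 11.87 ± 0.30 in B6 NC (SD, n = 3 each). Arg1 splits arginine into urea and ornithine, which closes the cycle, and macrophages can also express it. Arg1 averaged 12.35 ± 0.40 in MupHe HCC, 11.59 ± 0.68 in IgAkMup HCC (SD, n = 4 each) and 12.98 ± 0.14 in CD8kMup HCC (SD, n = 3), against 12.84 ± 0.05 in MupHe NASH and 13.31 ± 0.20 in IgAkMup NASH (SD, n = 3 each). The 3 CD8kMup tumours at 13.04, 13.09 and 12.82 lay within the Arg1 range of the 24 non-tumour libraries, 12.79 to 13.86. The mean level of 6 macrophage markers was between 7.77 and 8.74 in tumours and between 7.91 and 8.47 in NASH livers, and its part in the Arg1 level was not tested.

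In the order of group means, the 3 tumour groups held the lowest 3 places for Cps1, Otc, Ass1, Asl, Slc25a15 and Slc25a13, and IgAkMup HCC was last for all 8 genes. For Arg1 and Nags, MupHe NASH stood between CD8kMup HCC and MupHe HCC. The share of all genes with the same order was not counted, so these places only describe the 8 genes. Most neighbours in the order had overlapping ranges. The ranges parted between the lowest non-tumour group and the highest tumour group for Cps1 (MupHe NASH and MupHe HCC), Asl (MupHe NASH and CD8kMup HCC) and Slc25a13 (MupHe NC and CD8kMup HCC).

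Tumours were set against NASH livers of the same genotype to ask what changed between steatohepatitis and cancer. In IgAkMup all 8 genes fell, by 2.43 ± 0.29 for Ass1, 2.37 ± 0.45 for Otc, 1.72 ± 0.25 for Arg1, 1.67 ± 0.18 for Slc25a13, 1.48 ± 0.22 for Slc25a15, 1.41 ± 0.24 for Asl, 1.21 ± 0.33 for Cps1 and 0.74 ± 0.16 for Nags (log2 ± SE, n = 4 and 3). The Ass1 level in IgAkMup tumours was thus 0.185-fold that of IgAkMup NASH livers. In MupHe 3 genes fell: Slc25a13 by 0.80 ± 0.18, Slc25a15 by 0.76 ± 0.22 and Ass1 by 0.91 ± 0.29 (log2 ± SE, n = 4 and 3). MupHe differences of the 5 genes that did not pass were −0.98 ± 0.45 for Otc, −0.62 ± 0.33 for Cps1, −0.49 ± 0.25 for Arg1, −0.38 ± 0.24 for Asl and −0.13 ± 0.16 for Nags.

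These calls used limma across all genes with Benjamini-Hochberg adjustment at a threshold of 0.05. Adjusted p-values ran from 5.55e-08 for Slc25a13 to 0.0038 for Cps1 in IgAkMup, and were 0.00134 for Slc25a13, 0.0109 for Slc25a15 and 0.0187 for Ass1 in MupHe. Of all genes tested, 20.7% were called and lower in IgAkMup and 14.7% in MupHe. The median difference of the 8 genes was −1.57 in IgAkMup and −0.69 in MupHe, beside medians of 0.0377 and 0.0042 over all genes. HCC and NASH libraries did not overlap for 7 genes in IgAkMup, all but Cps1, beside 19.6% of all genes that were lower without overlap, and for Cps1, Ass1 and Slc25a15 in MupHe, beside 14.8%. In a fit of these groups alone, none of the 3 MupHe calls passed, and in IgAkMup the calls of Cps1 and Nags were lost; the Cps1 call was also lost after quantile normalization, with adjusted p-values of up to 0.174 over the alternatives. Without MupHe HCC 3, MupHe NASH 1 or MupHe NASH 2, the MupHe call of Ass1 was lost, and without MupHe HCC 2 calls in MupHe numbered 5. Here and below, counts after quantile normalization, without the filter or with libraries left out stand without the share of all genes called there.

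MupHe tumours and MupHe NASH livers differ in both parts of the column tag, while IgAkMup NASH livers share its first part with all tumours. Against IgAkMup NASH livers, 7 of 8 genes were lower in MupHe tumours, with Ass1 at −1.37 ± 0.29, Otc at −1.22 ± 0.45, Slc25a13 at −0.998 ± 0.18 and Arg1 at −0.97 ± 0.25 (log2 ± SE). The exception was Cps1, at −0.63 ± 0.33 (adjusted p = 0.15, limma). Of all genes, 14.1% were called and lower in this comparison, which also changes the genotype. MupHe tumours and IgAkMup NASH livers did not overlap for 7 genes, all but Otc, beside 13.0% of all genes. In a fit of these groups alone 2 of the 7 calls passed, and 4 passed without IgAkMup NASH 2. The Otc call was also lost without MupHe HCC 3, IgAkMup NASH 3 or IgAkMup NASH 6, and the Asl call without MupHe HCC 3.

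Averaged over MupHe and IgAkMup, all 8 genes were lower in tumours than in NASH livers, with Otc at −1.68 ± 0.31, Ass1 at −1.67 ± 0.21, Slc25a13 at −1.23 ± 0.13, Slc25a15 at −1.12 ± 0.16, Arg1 at −1.11 ± 0.17, Cps1 at −0.92 ± 0.23, Asl at −0.89 ± 0.17 and Nags at −0.43 ± 0.11 (log2 ± SE). Of all genes, 22.9% were called and lower in this contrast. The Cps1 call was lost after quantile normalization (adjusted p = 0.0867, limma). The difference was larger in IgAkMup than in MupHe for all 8 genes. The median difference of differences was −0.95, beside 0.0027 over all genes. For 3 genes the difference of differences passed the test. These were Ass1 at −1.52 ± 0.41 (adjusted p = 0.0186, limma), Arg1 at −1.23 ± 0.35 (adjusted p = 0.0243, limma) and Slc25a13 at −0.87 ± 0.25 (adjusted p = 0.027, limma), beside 5.20% of all genes called and lower. None of these 3 passed after quantile normalization or in a fit of the 4 groups alone. With weights per library the calls were Arg1, Otc, Asl and Slc25a15, beside 6.97% of all genes called and lower, so that those of Ass1 and Slc25a13 were lost. Without the 3 tumours that lie apart all 8 genes passed. The count was 0 without IgAkMup NASH 2, 1 without MupHe NASH 1 or MupHe NASH 2, and 6 without MupHe HCC 3.

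**Figure D2:**
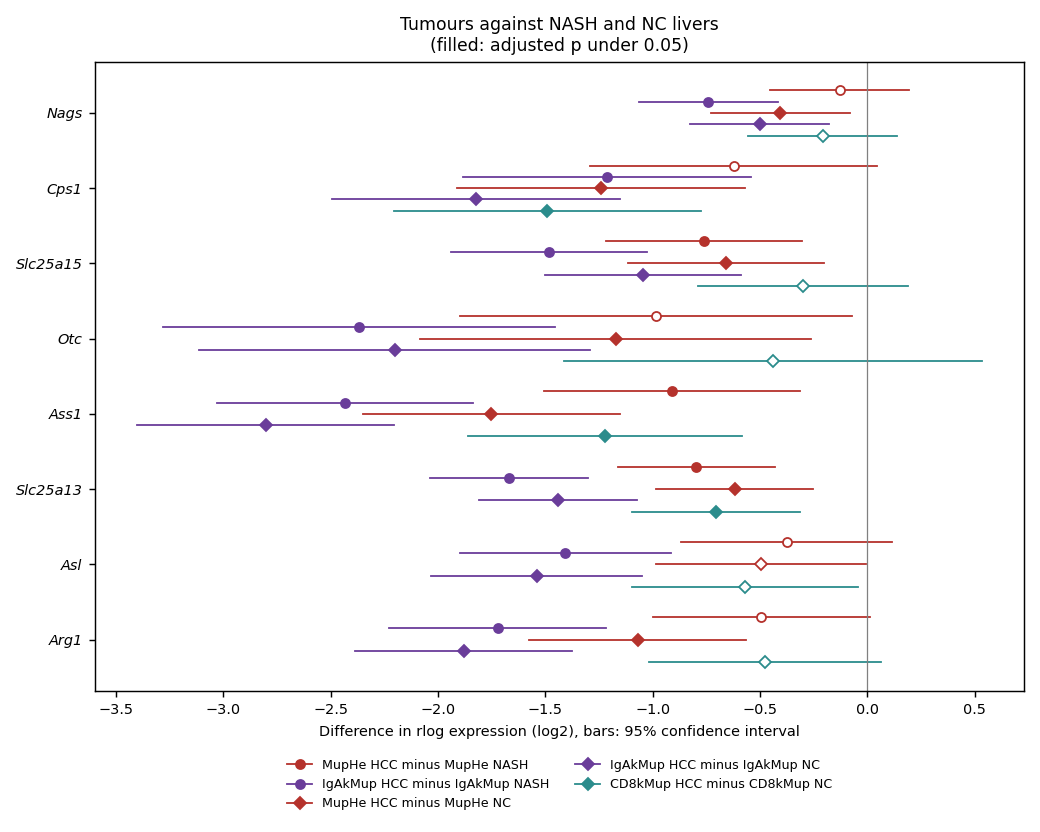
Difference in level (log2, horizontal axis) between tumours and NASH livers (circles) or NC livers (diamonds) of the same genotype for the 8 urea cycle genes, with 95% confidence intervals from the limma fit. Filled symbols passed the adjusted threshold. IgAkMup points lie left of MupHe points for every gene, and the CD8kMup difference is largest for Cps1, at −1.49.

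Tumours were also set against NC livers of the same genotype, which adds CD8kMup. In CD8kMup tumours 3 genes fell: Cps1 by 1.49 ± 0.35, Ass1 by 1.22 ± 0.31 and Slc25a13 by 0.71 ± 0.19 (log2 ± SE, n = 3 each). Cps1 was at 13.73, 13.30 and 13.50 in CD8kMup tumours, against 14.76, 15.06 and 15.18 in CD8kMup NC livers. The other 5 genes had CD8kMup differences of −0.57 ± 0.26 for Asl, −0.48 ± 0.26 for Arg1, −0.44 ± 0.48 for Otc, −0.30 ± 0.24 for Slc25a15 and −0.21 ± 0.17 for Nags. In IgAkMup tumours all 8 genes fell relative to NC livers, with Ass1 at −2.80 ± 0.29, Otc at −2.20 ± 0.45, Arg1 at −1.88 ± 0.25 and Cps1 at −1.82 ± 0.33. In MupHe tumours 7 genes fell, with Ass1 at −1.75 ± 0.29, Cps1 at −1.24 ± 0.33, Otc at −1.17 ± 0.45 and Arg1 at −1.07 ± 0.25. Asl, at −0.50 ± 0.24, did not pass in MupHe.

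Of all genes, 17.0% were called and lower in CD8kMup, 22.1% in IgAkMup and 19.5% in MupHe. Tumours and NC livers did not overlap for 7 genes in CD8kMup (all but Nags), all 8 in IgAkMup and 4 in MupHe, beside 27.6%, 21.5% and 17.6% of all genes that were lower without overlap. In the fit of MupHe groups alone 3 of the 7 calls passed, and after quantile normalization 4. Without MupHe HCC 3 the MupHe difference of Otc was −0.38 and its call was lost, and MupHe calls numbered 4 without MupHe HCC 3, MupHe NC 1 or MupHe NC 3. The IgAkMup call of Nags was lost without IgAkMup HCC 8 or IgAkMup NC 3. HCC and NC libraries carry different tags in every genotype, so tag and stage cannot be told apart here, while comparisons between genotypes are matched for it.

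Among tumours, IgAkMup HCC was lower than MupHe HCC for 5 genes: Ass1 at −1.06 ± 0.27, Arg1 at −0.75 ± 0.23, Asl at −0.71 ± 0.22, Slc25a13 at −0.67 ± 0.17 and Slc25a15 at −0.64 ± 0.21 (log2 ± SE, n = 4 each), beside 6.01% of all genes called and lower. Ranges overlapped for all 8 genes. This count was 0 in a fit of the 2 groups alone and 8 without the 3 tumours that lie apart. It was 0 without MupHe HCC 4, 2 without MupHe HCC 2 or IgAkMup HCC 5, and 3 without MupHe HCC 7. CD8kMup HCC was higher than IgAkMup HCC for 7 genes, all but Cps1, with Otc at 1.90 ± 0.45, Ass1 at 1.82 ± 0.29, Arg1 at 1.39 ± 0.25, Slc25a15 at 0.95 ± 0.22, Asl at 0.94 ± 0.24, Slc25a13 at 0.84 ± 0.18 and Nags at 0.45 ± 0.16 (n = 3 and 4), beside 11.8% of all genes called and higher. CD8kMup and IgAkMup tumours did not overlap for 6 of these, all but Nags, beside 12.2% of all genes. The Nags call was lost without any 1 of the CD8kMup tumours or without IgAkMup HCC 8. Cps1 was at 0.47 ± 0.33 in that comparison, with a 95% interval from −0.20 to 1.14. Between CD8kMup HCC and MupHe HCC none of the 8 genes passed in limma, with Ass1 at 0.76 ± 0.29 and Arg1 at 0.64 ± 0.25 as the 2 genes with an unadjusted p under 0.05, and 1.32% of all genes were called. Without MupHe HCC 4, Ass1 passed.

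Since HCC and NC carry the same pair of tags in each genotype, the differences between tumours and NC livers were compared between genotypes. The difference was smaller in CD8kMup than in IgAkMup by 1.58 ± 0.43 for Ass1 (adjusted p = 0.0438, limma) and by 1.40 ± 0.36 for Arg1 (adjusted p = 0.038, limma), beside 1.41% of all genes called and higher. Neither passed without the filter on low values or in a fit of the 4 groups alone, where Otc passed. The count was 0 without any 1 of the CD8kMup tumours, CD8kMup NC 1 or 2, or IgAkMup NC 2 or 3, and 1 without IgAkMup HCC 8 or IgAkMup NC 1. The other 6 genes did not pass, with Otc at 1.76 ± 0.65 and Cps1 at 0.33 ± 0.48. Between IgAkMup and MupHe none of the 8 passed in limma, where 0.778% of all genes were called, although 4 genes had an unadjusted p under 0.05, and 4 passed without MupHe HCC 3 or without the 3 tumours that lie apart. Between CD8kMup and MupHe none passed, with no unadjusted p under 0.05 and 0.0486% of all genes called.

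**Figure D3:**
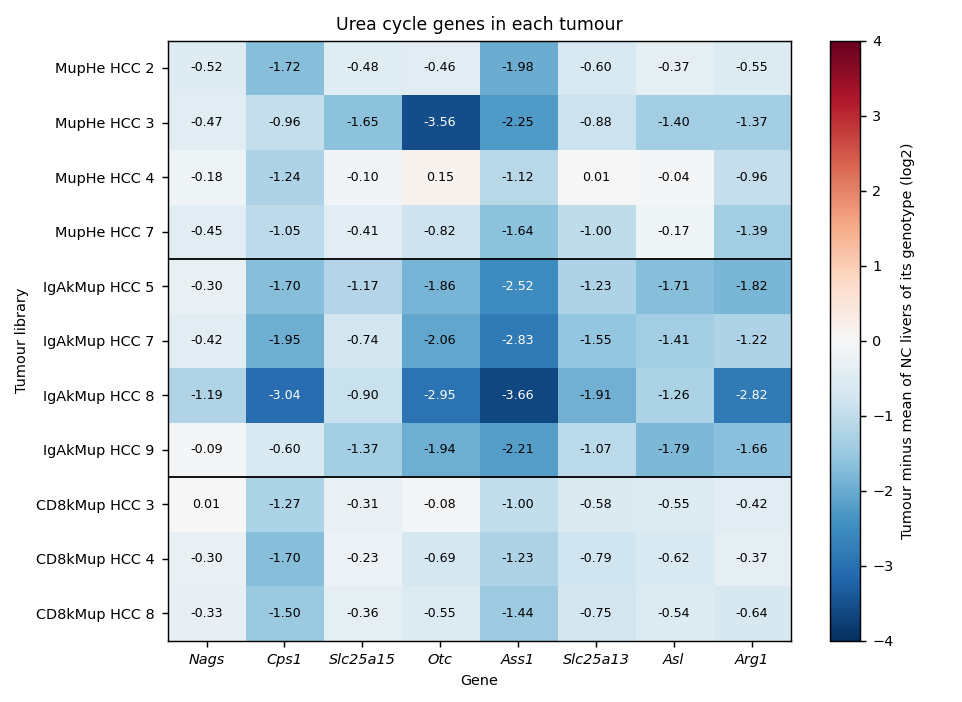
Level of each urea cycle gene in each of the 11 tumours minus the mean of the NC livers of the same genotype (log2, colour scale from −4 to 4; numbers in the cells are the differences). Ass1 is the most reduced gene in all 4 IgAkMup tumours and Cps1 in all 3 CD8kMup tumours, while Otc at −3.56 is the most reduced in MupHe HCC 3.

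The tumours differed in which step was most reduced. Relative to the mean of NC livers of its genotype, Ass1 was the most reduced gene in MupHe HCC 2 and 7 and in all 4 IgAkMup tumours, at −1.98, −1.64, −2.52, −2.83, −3.66 and −2.21. In the 3 CD8kMup tumours and MupHe HCC 4 it was Cps1, at −1.27, −1.70, −1.50 and −1.24. MupHe HCC 3 had Otc at −3.56 and Slc25a15 at −1.65, while its Cps1, at −0.96, was the least reduced of the 4 MupHe tumours. MupHe HCC 4 had a median difference of −0.14 over the 8 genes and IgAkMup HCC 8 one of −2.37. IgAkMup HCC 8 had the lowest Cps1, Otc, Ass1, Arg1, Nags and Slc25a13 of its group, but its Asl, at 10.21, was the group's highest. IgAkMup HCC 9 had Cps1 at 14.26, the highest of all tumours, and Asl at 9.69, the lowest.

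Across the 11 tumours, Asl and Slc25a15 varied together most closely among the 28 pairs of genes. Pearson's r was 0.98 (permutation p = 4e-05, adjusted over 28 pairs 0.00112) and Spearman's rho 0.90 (permutation p = 0.00038, adjusted 0.00756). It was 0.97 without IgAkMup HCC 9 and MupHe HCC 3, the tumours farthest from the median of Asl, and 0.97 for deviations from the mean of each genotype. Cps1 and Slc25a15 had an r of 0.0084 (permutation p = 0.983, adjusted 0.983) and a rho of −0.06 (permutation p = 0.86, adjusted 0.928), and r was 0.09 without IgAkMup HCC 8 and 9 and −0.41 for deviations from genotype means. Cps1 and Nags had an r of 0.84 (permutation p = 0.00745, adjusted 0.019) and a rho of 0.60 (permutation p = 0.0564, adjusted 0.0929), and r was 0.86 for deviations from genotype means and 0.46 without IgAkMup HCC 8 and 9. Those tumours lie farthest from the median of Cps1, so leaving them out also narrows its range. How far this relation rests on them cannot be told. The permutations ran over all 11 tumours without regard to genotype, so their p-values also take in differences between genotypes. These pairs were singled out after their values were seen.

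NASH livers were set against HFD control livers. The fit over all groups takes its spread from tumours too, so an SE here is not the spread of the compared livers alone. The SD of Otc, for example, was 1.64 in MupHe HCC (n = 4), 0.11 in MupHe NASH and 0.03 in IgAkMup NASH (n = 3 each). None of the 8 genes passed between the 2 NASH groups and the 2 HFD control groups, averaged over genotypes, where 1.32% of all genes were called. In limma 3 genes had an unadjusted p under 0.05: Ass1 at −0.61 ± 0.22, Cps1 at −0.55 ± 0.25 and Asl at −0.51 ± 0.18 (log2 ± SE, adjusted p = 0.202, 0.35 and 0.193). The comparisons within a tag differed. Within Tri N, MupHe NASH minus IgAkCLM HFD control was −1.003 ± 0.35 for Cps1, −0.92 ± 0.31 for Ass1, −0.85 ± 0.26 for Asl and −0.65 ± 0.26 for Arg1, and 6 genes were lower without overlap, beside 15.1% of all genes. Within SS N, IgAkMup NASH minus B6 HFD control was −0.10 ± 0.35 for Cps1, −0.31 ± 0.31 for Ass1, −0.18 ± 0.26 for Asl and 0.01 ± 0.26 for Arg1, and no gene was lower without overlap. None of the 8 passed in either (0.559% and 0.251% of all genes called). In a fit of the groups of the comparison alone, Ass1 and Asl passed averaged over genotypes, where 2.77% of all genes were called and lower. In such a fit within Tri N, Cps1, Ass1, Asl and Arg1 passed, where 2.96% of all genes were called and lower.

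NASH livers were also set against NC livers of their genotype. In MupHe, Ass1 was at −0.84 ± 0.31, Cps1 at −0.62 ± 0.35 and Arg1 at −0.58 ± 0.26, and in IgAkMup, Cps1 was at −0.61 ± 0.35, Ass1 at −0.37 ± 0.31 and Slc25a15 at 0.44 ± 0.24 (log2 ± SE, n = 3 each). None of the 8 passed in either genotype in limma, with 2 genes at an unadjusted p under 0.05 in MupHe and 0 in IgAkMup, beside 1.93% and 12.9% of all genes called. In MupHe, Cps1, Ass1, Arg1 and Nags were lower without overlap, beside 18.4% of all genes. In IgAkMup, Cps1 was lower without overlap, beside 22.3%, and Otc, Nags and Slc25a15 were higher, beside 22.6%. In fits of the groups alone 4 genes passed in MupHe (Ass1, Arg1, Cps1 and Nags, all lower), where 15.6% of all genes were called and 8.45% were lower. In IgAkMup 3 passed (Cps1 and Ass1 lower, Slc25a15 higher), where 29.2% of all genes were called, a share near that of the 8 genes.

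In HFD control and NC livers, none of the 8 genes passed in the fit over all groups. The 2 B6 groups differ in both parts of the column tag, and the diet of NC mice is not given. In B6, HFD control minus NC was −0.70 ± 0.35 for Cps1 and 0.43 ± 0.24 for Slc25a15, with 20.6% of all genes called. With weights per kind of library both passed, where 36.9% of all genes were called. Only Cps1 of the 8 parted the B6 groups, beside 20.6% of all genes that were lower without overlap. IgAkCLM HFD control livers, which share the first part of the tag with NC livers, were at 0.20 ± 0.35 for Cps1 and 0.40 ± 0.24 for Slc25a15 relative to B6 NC livers, with 2.31% of all genes called, and Slc25a15 was higher without overlap, beside 14.5%. Cps1 stood out between the HFD controls themselves, at 15.69, 15.00 and 15.06 in IgAkCLM against 13.91, 14.79 and 14.35 in B6. Cps1 and Asl were higher in IgAkCLM without overlap, beside 16.1% of all genes. Its difference of 0.90 ± 0.35 did not pass (adjusted p = 0.132, limma), where 5.16% of all genes were called, and passed with weights per library, where 19.0% of all genes were called. Between NC livers of different genotypes, no gene passed and 0.0486% of all genes were called for MupHe minus B6 and 0.0162% each for IgAkMup minus MupHe and CD8kMup minus MupHe. The largest of these NC differences was Asl at −0.73 ± 0.26 in MupHe relative to B6 (adjusted p = 0.607, limma; unadjusted p = 0.00792), and it was the only 1 of the 24 values from these 3 comparisons with an unadjusted p under 0.05. Asl and Slc25a13 were lower in MupHe NC than in B6 NC livers without overlap, beside 8.75% of all genes.

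The genes around the cycle moved in both directions between tumours and NASH livers, averaged over MupHe and IgAkMup. Of 25 genes tested for arginine, ornithine, proline and polyamine metabolism, 10 fell and 6 rose, beside 22.9% of all genes that fell and 25.5% that rose (median difference −0.09, beside 0.0133 over all genes). The share that rose is near that of all genes. Oat, which removes ornithine from the cycle into proline and glutamate metabolism and marks pericentral hepatocytes, fell by 4.47 ± 0.25. Prodh and Aldh4a1, which degrade proline, fell by 1.82 ± 0.19 and 1.29 ± 0.12, the agmatinase gene Agmat by 1.52 ± 0.10, and the arginine transporter Slc7a2 by 1.25 ± 0.22. Aldh18a1, which starts the synthesis of proline and ornithine from glutamate, rose by 1.34 ± 0.21. Arg2, the mitochondrial arginase, did not pass the filter on low values.

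**Figure D4:**
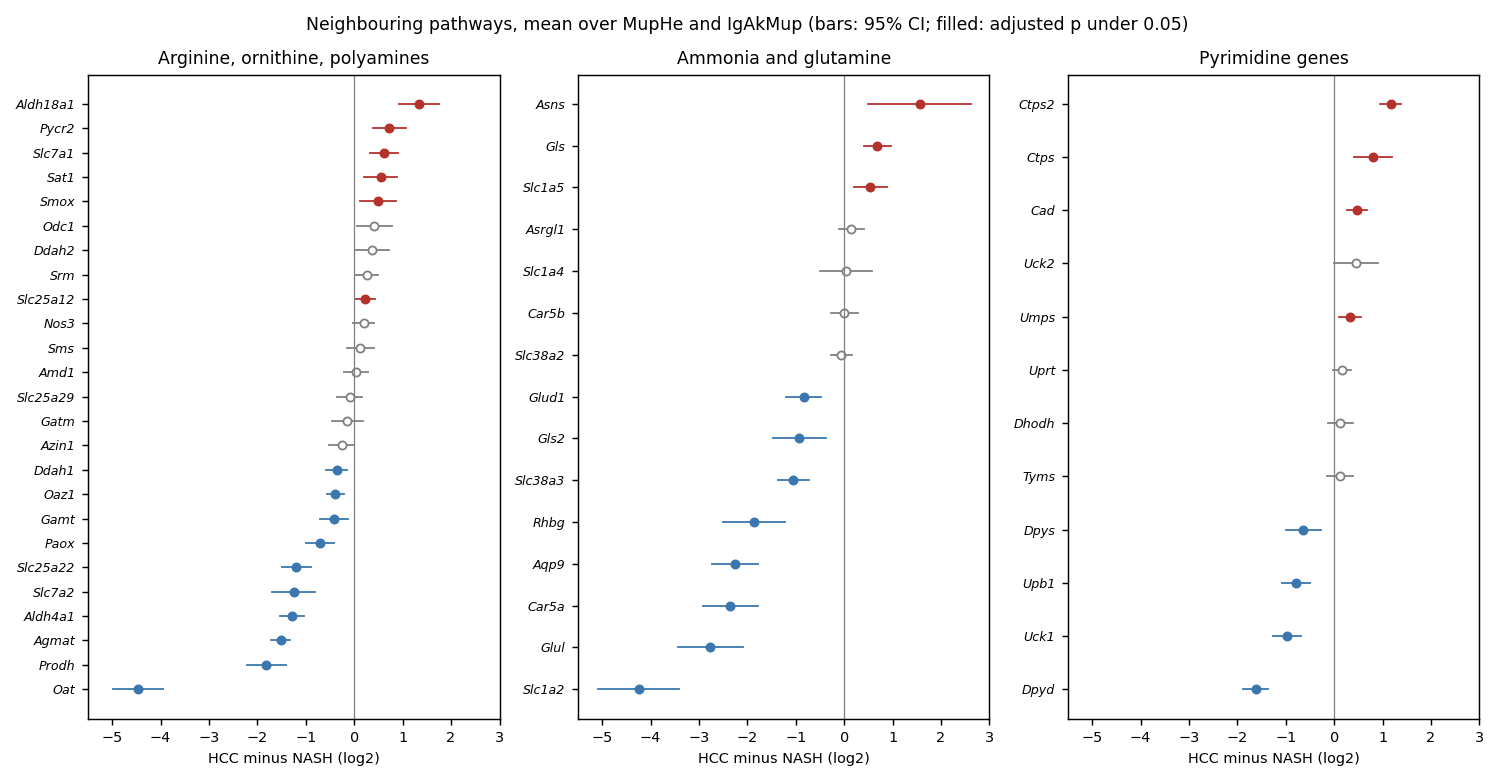
Mean difference between tumours and NASH livers over MupHe and IgAkMup (log2, horizontal axis) for genes of arginine, ornithine and polyamine metabolism, of ammonia and glutamine handling and of pyrimidine metabolism, with 95% confidence intervals. Filled symbols passed the adjusted threshold; Oat at −4.47 and Slc1a2 at −4.24 lie farthest to the left and Asns at 1.56 farthest to the right.

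Of 15 genes tested for ammonia and glutamine handling, 8 fell and 3 rose (median −0.84), beside 22.9% of all genes that fell and 25.5% that rose. The share that rose is not above that of all genes. Slc1a2, a glutamate transporter, fell by 4.24 ± 0.41. Glul, glutamine synthetase, fell by 2.77 ± 0.33 and the ammonia transporter Rhbg by 1.86 ± 0.31. Car5a, the mitochondrial carbonic anhydrase that supplies bicarbonate to CPS1, fell by 2.36 ± 0.28, and Aqp9, a channel through which urea and glycerol pass, by 2.26 ± 0.23. Asns, asparagine synthetase, rose by 1.56 ± 0.52.

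Carbamoyl phosphate is also made in the cytosol by Cad, for pyrimidine synthesis. Of 12 pyrimidine genes, 4 rose and 4 fell (median 0.15), beside the 25.5% and 22.9% of all genes. Cad rose by 0.47 ± 0.10, Ctps by 0.81 ± 0.19 and Ctps2, a second CTP synthase, by 1.17 ± 0.11, while the degrading enzymes Dpyd, Upb1 and Dpys fell by 1.62 ± 0.13, 0.79 ± 0.14 and 0.63 ± 0.18, and Uck1, a uridine kinase, by 0.97 ± 0.14. Cad was at 6.81, 7.48, 7.16 and 7.62 in MupHe HCC 2, 3, 4 and 7 and at 7.72, 7.66, 7.53 and 7.81 in IgAkMup HCC 5, 7, 8 and 9, against 7.10, 7.19 and 7.17 in MupHe NASH and 6.81, 6.74 and 7.02 in IgAkMup NASH. The Cad groups overlapped in MupHe and not in IgAkMup.

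Of 18 regulators that act on urea cycle genes or on the enzymes, 9 fell and none rose (median −0.27), beside 22.9% of all genes that fell and 25.5% that rose. Klf15, a factor of amino acid catabolism, fell by 1.10 ± 0.18, Ppara by 0.78 ± 0.14, the mitochondrial deacylase Sirt3 by 0.74 ± 0.14, the bile acid receptor Nr1h4 by 0.72 ± 0.12, Foxa1 by 0.66 ± 0.15 and Cebpb by 0.45 ± 0.15. Hnf4a and Cebpa, which drive many hepatocyte genes, were at −0.12 ± 0.08 and −0.17 ± 0.10 and did not pass. Enzymes that break down other amino acids fell in 31 of 36 cases and rose in 1, beside the same 22.9% and 25.5% of all genes. Their median was −0.98, beside a median of −1.11 for the 8 urea cycle genes. In CD8kMup tumours relative to NC livers, 8 of the 36 fell and 1 rose, beside 17.0% of all genes that fell and 16.8% that rose.

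Periportal genes other than the urea cycle did not share 1 direction, with 7 of 12 lower, among them Pck1 at −3.01 ± 0.28 and Hal at −1.66 ± 0.28, and 4 higher, Aldh1b1, Cdh1, Hsd17b13 and Ctsc. All 13 pericentral genes were lower (median −2.68). Beside both lists, 22.9% of all genes were lower and 25.5% higher. Of the 8 hepatocyte markers, Ttr, Serpina1a and Apob fell by 1.18 ± 0.20, 0.86 ± 0.26 and 0.42 ± 0.18, Trf rose by 0.84 ± 0.20, and Alb at −0.06 ± 0.31, Apoa1, Fgb and Ahsg did not pass. Of markers of other cells, the calls were 2 higher of 5 tested for cholangiocytes, 3 higher and 1 lower of 6 for macrophages, 3 higher of 5 for lymphocytes, 4 higher and 2 lower of 7 for stellate cells, 2 higher and 2 lower of 6 for endothelium and 2 lower of 3 for red cells, beside 25.5% of all genes higher and 22.9% lower. No marker was at 0 in every library of a group, although 0 is not the floor of these values. The part of these cells in the urea cycle values was not tested.

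**Figure D5:**
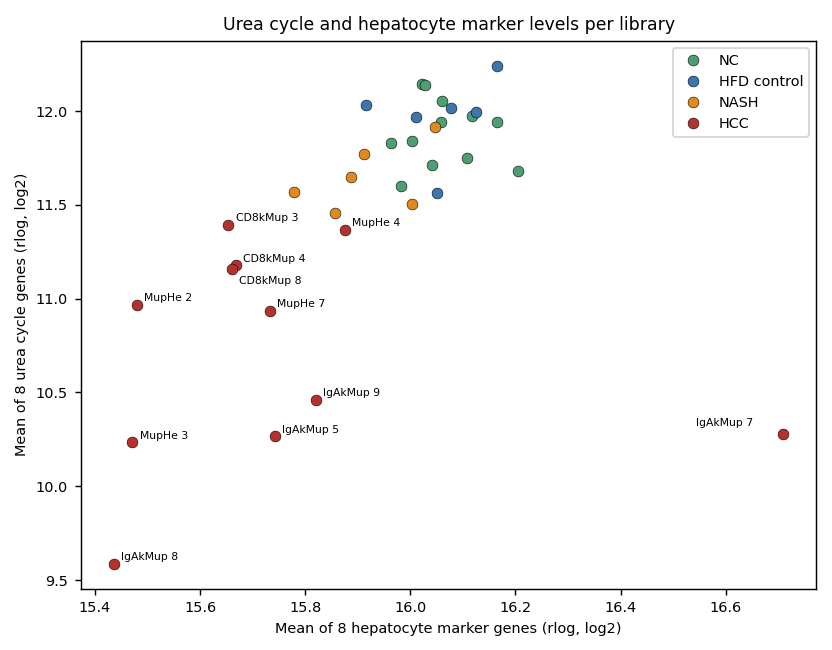
Mean level of the 8 urea cycle genes (vertical axis) against the mean level of 8 hepatocyte markers (horizontal axis) in each library (rlog, log2); tumours are named by genotype and number. IgAkMup 7 has the highest hepatocyte marker mean of all libraries, 16.71, at a urea cycle mean of 10.28. All other tumours have marker means of 15.88 or lower, below every NC and HFD control library.

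Every tumour but IgAkMup HCC 7 had a hepatocyte marker mean below all NC livers and HFD controls. The highest of these tumours, MupHe HCC 4, was at 15.88, against at least 15.96 in NC livers and 15.91 in HFD controls. Tumours overlapped NASH livers, whose lowest marker mean was 15.78. IgAkMup HCC 7 had a marker mean of 16.71, the highest of the 35 libraries, and a mean of 10.28 over the 8 urea cycle genes. IgAkMup HCC 8 had the lowest of both, 15.44 and 9.59. The 3 CD8kMup tumours had marker means of 15.65, 15.67 and 15.66 and urea cycle means of 11.39, 11.18 and 11.16.

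The genes whose level followed the mean of the 8 centred urea cycle genes most closely over the 35 libraries were Gm5424 (r = 0.98), Il1rap (r = 0.97), Phyh (r = 0.96), Cyp4f15 (r = 0.96) and Aass (r = 0.96), by Pearson's r among all kept genes that are not members. Gm5424 is the Ass1 pseudogene described above. Its level nearly equals that of Ass1, which is part of the mean, so its r is not that of a separate gene. Il1rap is the accessory chain of the interleukin-1 receptor, Phyh a peroxisomal hydroxylase of branched fatty acids, Cyp4f15 a cytochrome P450 and Aass the first enzyme of lysine breakdown. Il1rap averaged 9.54 ± 0.67 in MupHe HCC, 8.63 ± 0.29 in IgAkMup HCC (SD, n = 4 each) and 9.76 ± 0.13 in CD8kMup HCC (SD, n = 3), against 10.09 ± 0.16 in MupHe NASH and 10.31 ± 0.09 in IgAkMup NASH (SD, n = 3 each). The most opposed genes were Ptpre (r = −0.95), Sh3pxd2b (r = −0.95) and Col4a2 (r = −0.94). All these libraries share the split into tumours and other livers. For deviations from group means r fell to 0.88 for Gm5424 and to between 0.77 and 0.815 for Il1rap, Phyh, Cyp4f15 and Aass. It fell to between −0.67 and −0.65 for the 3 opposed genes.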

How the data were processed

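PolyA RNA of 41 mouse liver and tumour samples was sequenced. Per the labels, libraries were made from 100 ng RNA with a stranded mRNA kit, after extraction on AllPrep columns or with Trizol and RNeasy. For the 29 HFD samples the submitters' processing notes list the tools STAR and Cuffdiff, and for the 12 NC samples STAR, HOMER and DESeq2, all with mm10, without versions or roles. The authors deposited 1 table of rlog values on a log2 scale (−2.39 to 20.93), and the program that made them is not given in the sources used here. Such values are scaled for library size and shrink differences of weakly expressed genes. Their depth is unknown, and intervals from counts are not possible.

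Columns were matched by name. In all 35 columns in 11 groups were used, and 6 were not, because their names could belong to CD8kMup NASH or to CD8kCLM HFD control, which are not analysed here. NC columns matched single samples. The others matched a group and keep the number that ends the column name. No 2 libraries were duplicates: the SD of their difference over kept genes was between 0.214 and 0.761 within groups.

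Genes with a mean of at least 3 were kept. A single limma fit (limma 3.58.1, R 4.3.3) with a mean per group served 22 comparisons, with eBayes and trend and two-sided p-values adjusted by Benjamini and Hochberg over all kept genes. All groups entered 1 fit to share an estimate of spread. After tags and levels were seen, 3 differences of tumour minus NC contrasts were added. The fit was tested on simulated data in which a gene had the same spread in all groups. That test does not cover a wider spread in tumours than in other livers. The 8 members, the other gene lists and the tests were chosen with earlier results of these data known, so counts over lists are descriptions. All 8 members are named in each comparison, and of 4 lists of neighbouring genes (arginine and ornithine, ammonia and glutamine, pyrimidines, regulators) up to 6 genes with the largest called difference in the mean tumour minus NASH contrast. Cad, Hnf4a, Cebpa, Arg2 and the named periportal genes and markers were added after their values were seen. Likeness took the 5 highest and 3 lowest Pearson r. Correlations between members over tumours used 100000 permutations each (scipy 1.17.1). Copies were sought with blastn 2.17.0 of the coding sequences against GENCODE M21 transcripts. Promoter windows came from RefSeq. Alternatives were filters at a mean of 5 or none, median centring, quantile normalization, a fit of the compared groups alone, sample weights per library or kind of library, eBayes without trend, the replicate number as a block, each library left out in turn and, chosen after the data were seen, 3 tumours left out together.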

Additional observations from a re-analysis of the deposited data

Results flagged for a closer look

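The difference between tumours and NASH livers was larger in IgAkMup than in MupHe for Ass1 by −1.52 (SE 0.41, adjusted p = 0.0186, limma), for Arg1 by −1.23 (SE 0.35, adjusted p = 0.0243, limma) and for Slc25a13 by −0.87 (SE 0.25, adjusted p = 0.027, limma). The test of the difference between the genotypes singled these out. MupHe and IgAkMup NASH livers carry different column tags, and the part of the tag in these values was not tested. Between tumours alone, which share a tag, IgAkMup minus MupHe was −1.06 for Ass1, −0.75 for Arg1 and −0.67 for Slc25a13.

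The difference between tumours and NC livers was smaller in CD8kMup than in IgAkMup, by 1.58 for Ass1 (SE 0.43, adjusted p = 0.0438, limma) and 1.40 for Arg1 (SE 0.36, adjusted p = 0.038, limma). Both genotypes carry the same tags in both stages. The 16 checks for a single distant value, which took each of the 8 genes in MupHe HCC and in IgAkMup HCC, flagged no tumour. With 4 libraries in a group such a check can hardly flag a value, so it does not show that no tumour stood apart. MupHe HCC 3 had Otc at 8.58, against 11.32 to 12.29 in the other MupHe tumours. Groups of 3 libraries, CD8kMup HCC among them, were not checked.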

How the results depend on the processing

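Of 3352 values under the alternatives, 3105 kept their side of the threshold, 149 lost a call and 98 gained one. No called value reversed, and 88 values that were not called changed sign. No scaling moved the median of all genes by over 0.1. The counts below are of the 8 genes.

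In the fit of the compared groups alone, calls numbered 0 in place of 3 for MupHe HCC minus NASH, 0 of 3 for the difference of the HCC minus NASH contrasts, 2 of 7 for MupHe HCC minus IgAkMup NASH, 3 of 7 for MupHe HCC minus NC, 0 of 5 for IgAkMup minus MupHe HCC, 4 of 7 for CD8kMup minus IgAkMup HCC and, for the added CD8kMup minus IgAkMup difference, 1 (Otc) in place of Ass1 and Arg1. Of all genes, that fit called 4.44%, 0.0%, 4.09%, 8.89% and 0.0% as lower and 1.76% and 1.22% as higher in these comparisons, in the same order. It gave calls in place of 0 for MupHe NASH minus NC (4), IgAkMup NASH minus NC (3), NASH minus HFD control (2) and MupHe NASH minus IgAkCLM (4). All genes called there were 15.6%, 29.2%, 6.99% and 6.04%. Quantile normalization gave 2 of 5 for IgAkMup minus MupHe HCC, 1 of 2 for the added difference, 0 of 3 for the difference of HCC minus NASH contrasts, 3 of 7 for MupHe HCC minus IgAkMup NASH and 4 of 7 for MupHe HCC minus NC. Without a filter, IgAkMup minus MupHe HCC gave 2 of 5 and the added difference 0 of 2.

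Weights per library gave 0 of 5 for IgAkMup minus MupHe HCC. They gave 5 in place of 2 for the added difference and 6 in place of 3 for CD8kMup HCC minus NC. Of all genes, 275 were then called lower in place of 741 for IgAkMup minus MupHe HCC. For the added difference 1013 were called higher in place of 174. For CD8kMup HCC minus NC 3087 were called lower in place of 2093, so calls over all genes also rose there. In place of 0, weights per library gave 4 for MupHe NASH minus NC and 2 for IgAkMup NASH minus NC. They also gave, in place of 0, 5 for NASH minus HFD control and 7 for MupHe NASH minus IgAkCLM. Likewise in place of 0, they gave 1 for B6 HFD control minus NC and 1 for IgAkCLM minus B6 HFD control. Calls over all genes rose in these 6 too, to 20.1%, 40.2%, 19.3%, 15.7%, 33.3% and 19.0%. Weights per kind of library gave 0 of 5, 0 of 2 and, for CD8kMup minus IgAkMup HCC, 4 of 7, beside 0.527% of all genes lower, 0.892% higher and 2.57% higher. In place of 0 they gave 2, 2, 3, 4, 2 and 1 for those 6 comparisons. All genes called there were 14.2%, 32.0%, 8.52%, 5.83%, 36.9% and 15.1%. Without the 3 tumours that lie apart, calls were 8 for IgAkMup minus MupHe HCC and for the difference of HCC minus NASH contrasts, 4 for the added CD8kMup minus IgAkMup difference and 4 for the added IgAkMup minus MupHe one. The shares of all genes called in these fits, and with single libraries left out, are not given here.

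With single libraries left out, counts ran from 0 to 6 for IgAkMup minus MupHe HCC and the difference of HCC minus NASH contrasts, 0 to 2 for the added CD8kMup minus IgAkMup difference, 0 to 4 for the added IgAkMup minus MupHe one, 4 to 7 for MupHe HCC minus IgAkMup NASH, 4 to 8 for MupHe HCC minus NC, 2 to 5 for MupHe HCC minus NASH and 0 to 1 for CD8kMup minus MupHe HCC. The cause of these changes was not tested.

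Over all genes, the fit of the compared groups alone called 1210 in place of 3784 for MupHe HCC minus NASH, 3205 in place of 5408 for IgAkMup HCC minus NASH, 0 in place of 1249 for IgAkMup minus MupHe HCC, 335 in place of 2831 for CD8kMup minus IgAkMup HCC and 862 in place of 163 for NASH minus HFD control. For IgAkMup minus MupHe HCC, 508 of 1249 calls were higher, and 628 of 1211 after quantile normalization.

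Replicate numbers pair no samples: of 18 same-numbered pairs of NC libraries, 3 had deviations that correlated above 0.1 (r from −0.212 to 0.226). The number was used as a block in fits of the compared groups alone. There Asl was called for MupHe NC minus B6 NC (1 gene in place of 0). Calls over all genes were 65 for MupHe minus B6 NC, 155 for IgAkMup minus MupHe NC and 63 for CD8kMup minus MupHe NC. Fits of the same groups alone without the block called 94, 200 and 26, and the fit over all groups 6, 2 and 2. No paired analysis was possible for the other comparisons because their columns carry no replicate numbers of the labels.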
